A study of Homo sapiens with 12 samples.

Results

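The transcripts described here encode the factors that start and extend protein synthesis, the eukaryotic initiation factors (EIF1 to EIF6 symbols) and elongation factors (EEF1 and EEF2 symbols). They were taken by symbol, with no measured value in the rule, from the 26334 gene symbols of the count table. Of 66 symbols that matched the patterns, 4 eIF2 kinases (EIF2AK), EIF4ENIF1 and 5 symbols ending in P with digits (among them the 4E-binding proteins) were left out, which gave 56 members. Testing needed a mean count of 10 or more across the 12 libraries, and 51 members reached it. RNA came from shA673-1c cells, a line the labels call Ewing sarcoma and whose name points to A673, an established Ewing sarcoma line. Biological replicates were treated with 5 µM actinomycin D for 0, 1, 2 or 4 h, with 3 replicates at each time, and all libraries, those at 0 h included, came from cells grown in medium with blasticidin and zeocin. All 12 libraries carry the mark CTL in their sample titles. The labels do not say what the name's prefix or the antibiotics stand for, nor whether the cells are a single clone. The time course was made to follow how fast transcripts are lost once transcription stops, as a measure of stability to set beside the export of RNA in extracellular vesicles.

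Initiation begins when eIF2 carries the initiator tRNA to the small ribosomal subunit, where eIF1, eIF1A, eIF3 and eIF5 hold it ready to read the start codon. The eIF4 factors bind the cap of the mRNA, unwind its leader and bring it to that complex, and eIF2B recharges eIF2 with GTP for the next round. In elongation eEF1A delivers each aminoacyl-tRNA, the eEF1B subunits recharge eEF1A, and eEF2 moves the ribosome along by a codon. Many of these factors are encoded by TOP mRNAs, which start with a C followed by an unbroken run of C and U and whose translation follows mTOR activity. Actinomycin D blocks transcription, so that afterwards the level of each mRNA depends on its decay.

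The sequence that defines a TOP mRNA lies at its very start and is shown here for members whose slopes are described in the following paragraphs. Each line gives 10 bases before and 20 bases from a RefSeq start (GRCh38.p14), 5′ to 3′ on the transcribed strand. Capitals mark a tract, that is a C at the start followed by at least 4 C or T, and where there is no such tract they mark the start base.
EEF1B2 (chr2:206159885-206159914, + strand): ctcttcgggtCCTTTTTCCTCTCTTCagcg
EEF1A1 (chr6:73521013-73521042, − strand): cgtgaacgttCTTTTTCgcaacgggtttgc
EEF2 (chr19:3985444-3985473, − strand): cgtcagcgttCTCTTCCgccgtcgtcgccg
EIF3K (chr19:38619178-38619207, + strand): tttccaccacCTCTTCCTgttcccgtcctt
EIF2D (chr1:206612446-206612475, − strand): ccagccgggcCCTTTTCgcggccgggcccc
EIF4B (chr12:53006446-53006475, + strand): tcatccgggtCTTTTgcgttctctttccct
EIF4E (chr4:98929114-98929143, − strand): tggagcggttGtgcgatcagatcgatctaa
EIF1AD (chr11:66002138-66002167, − strand): cagcgccggaAgtacggttttcggagggat
A window was found for 42 of the 51 tested members, and 12 of the 42 (28.6%) held a tract at 1 or more starts: EEF1A1, EEF1B2, EEF2, EIF2A, EIF2D, EIF2S3, EIF3D, EIF3F, EIF3K, EIF3M, EIF4A2 and EIF4B. Of the 9155 tested genes with a window 7.65% held a tract, and of all 35116 start windows 4.07% did. EEF1B2 has a second RefSeq start with no tract. The lines printed are a selection. EEF1G, EIF3I and EIF5A, whose slopes were positive like those of most printed members with a tract, had windows with no tract. A tract read at an annotated start is a description of these letters only, since the starts used in these cells were not measured.

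Library totals ranged from 9147018 to 11194705 counts. Of the 7 Ewing sarcoma markers 6 had counts in every library, PRKCB 1015 to 1789, STEAP1 499 to 708, FLI1 143 to 908, NR0B1 69 to 451, NKX2-2 7 to 87 and CCK 1 to 16. Their sum ranged from 1803 to 3668 counts. CD99, a defining surface marker, was listed at 0 in every library, which is not a measured absence, since how reads in shared sequence were counted is not given in the sources used here. The 4 endothelial and blood markers summed to 2 to 9 counts per library, of which PECAM1 had 1 to 6. Levels are CPM, the counts of a gene per 1000000 counts of its TMM-scaled library, so each is relative to the other transcripts of that library, and fewer cells and less RNA per cell cannot be told apart. The slope is the change in log2 level per hour, fitted with edgeR over all 12 libraries. A member is said to fall or rise where its adjusted p (edgeR's quasi-likelihood test, Benjamini-Hochberg over 12032 genes) was below 0.05. The words fall and rise therefore always mean a change relative to the rest of the library.

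Before treatment, elongation factors held 4 of the 5 highest levels per length among the tested members. Levels are given here as CPM per kilobase of the annotated canonical transcript. EEF1A1, the main carrier of aminoacyl-tRNA, stood first at 1599 ± 39.4 (SD, n = 3), and EEF2, the translocase, followed at 868 ± 37.8. EEF1G, a structural subunit of the exchange complex, came next at 771 ± 27.6, ahead of EIF5A, which helps ribosomes past difficult peptide bonds, at 605 ± 17.0. EEF1B2, the exchange factor of eEF1A, stood at 560.1 ± 25.8, and none of these first 5 overlapped its neighbour in the order. EIF4G2, an eIF4G relative that lacks the cap-binding protein's docking site, was the highest tested initiation factor of the eIF4 group at 358 ± 21.8. EIF4A1 of that group was not tested and has no rank.

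At the other end, EIF4E3, a divergent cap-binding protein, had 0.598 ± 0.115 CPM per kilobase. EIF5AL1 had 1.79 ± 0.0215, EEF2K, the kinase that inactivates eEF2, 2.48 ± 0.420, EEF1A2, the form of eEF1A typical of neurons and muscle, 2.63 ± 0.344, and EIF5A2 2.87 ± 0.104. EEF2K, EEF1A2 and EIF5A2 overlapped their neighbours in the order, as did most members between rank 10 and rank 43. With the longest annotated transcript as the length, EEF1A1 and EEF2 remained first and second, EIF5A moved ahead of EEF1G, and EIF3I moved from rank 7 to rank 13. EIF4E2 moved further, from rank 23 to rank 42. Lengths shorter than the canonical transcript were not tried. EIF4A1, the abundant cap-complex helicase, EIF3C, EIF3CL and EIF4E1B were listed at 0 counts in all 12 libraries and were not tested. The Y-linked EIF1AY also did not reach the count minimum. Of the 6183 bases of the EIF4A1 gene (chr17:7572824-7579006, GENCODE version 44 on GRCh38), 5892 lie inside the annotated readthrough gene SENP3-EIF4A1, which had 0 to 4 counts. EIF3C and EIF3CL are near-identical copies of one another. As for CD99, a listed 0 is not a measured absence for EIF4A1, EIF3C or EIF3CL.

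**Figure D1:**
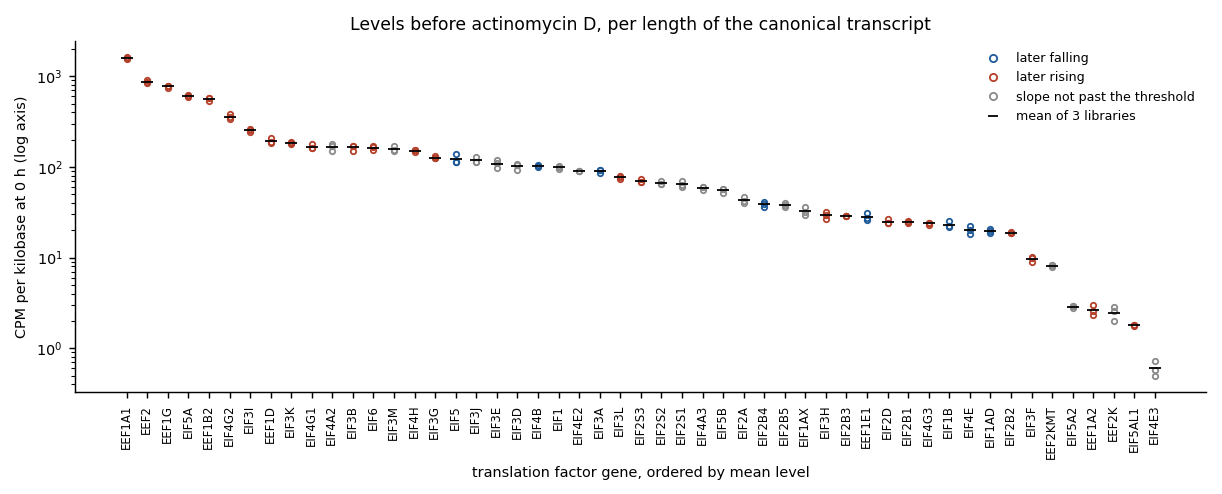
Level at 0 h of the 51 tested members in CPM per kilobase of the canonical transcript on a log axis, ordered by mean, with a circle for each of 3 libraries, a bar for their mean, and colours for the later slope. EEF1A1 lies highest at 1599 and EIF4E3 lowest at 0.598.

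After actinomycin D the translation factors moved more often upwards than downwards under TMM. Of the 51 tested members 8 fell, 25 rose and 18 did not pass the test. Over all 12032 tested genes, 32.1% fell and 30.7% rose. The median slope of the members was 0.04 log2 per hour against 0.01 over all tested genes, and the medians of the members in the 3 replicates fitted singly were 0.05, 0.04 and 0.03. The lowest slope was −0.39 (EIF1AD) and the highest 0.20 (EIF5AL1). Those of all 12032 tested genes ran from −1.98 to 0.48. A range widens with the number of genes, so these ranges do not show whether the members moved less. In a plain count of libraries, all 3 libraries at 4 h lay above all 3 at 0 h for 27 of the 51 members, against 30.4% of all tested genes. They lay below them for 7 of the 51, against 33% of all tested genes. The tested members took 2.23 ± 0.0351% of all counts at 0 h and 2.42 ± 0.0281% at 4 h (SD, n = 3), with no overlap between these library values, and EEF1A1 alone went from 0.582 ± 0.0142% to 0.663 ± 0.0106%.

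Same-numbered libraries deviated together from their time means, and the main fit leaves that pairing out. With the replicate number as a block 9 members fell and 30 rose in edgeR's test, against 34.8% and 36.2% of all tested genes. EIF3E fell in that fit (adjusted p = 0.0295), and EIF1AX (0.0089), EIF2A (0.0269), EIF2B5 (0.0312), EIF3D (0.00499) and EIF4A3 (0.0168) rose, with the adjusted p of each in brackets. Without the libraries at 4 h, 4 members fell and 17 rose, with no share of all tested genes given to set beside them. The falls of EEF1E1, EIF2B4, EIF3A, EIF4B and EIF4E and the rises of EEF1A2, EIF2B2, EIF3B, EIF3F, EIF4G1, EIF4G3, EIF4H and EIF5AL1 did not pass then, and EIF4A2 fell. Without the libraries at 0 h, EEF1A2, EEF1E1, EIF2B2 and EIF3B did not pass, and EIF1 and EIF1AX rose.

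The directions depend on what a library is scaled to. Scaled to GAPDH and ACTB instead, the median slope of all genes shifted by −0.14 log2 per hour, to −0.13, against −0.098 for the members. Under this scaling 37 members fell and 0 rose by edgeR's test (0 also at an unadjusted p under 0.05). A positive slope was kept by 4 members, namely EIF5AL1 (0.06), EEF1A2 (0.04), EEF1D (0.02) and EIF5A (0.00085). With plain library totals 10 members fell and 18 rose. EIF2B1, EIF2B2, EIF2S3, EIF3B, EIF4G1, EIF4G3 and EIF4H were the rising members that lost their call there, and EIF3E and EIF3M fell. The share of all tested genes called is given for neither of these scalings, so the counts of members stand without a background. A change of scaling shifts the slopes of all genes by about the same amount, so the position relative to the median gene, with 38 members above it and 13 below, hardly depends on the scaling and is no check of the direction. In what follows a rise is a rise under TMM.

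**Figure D2:**
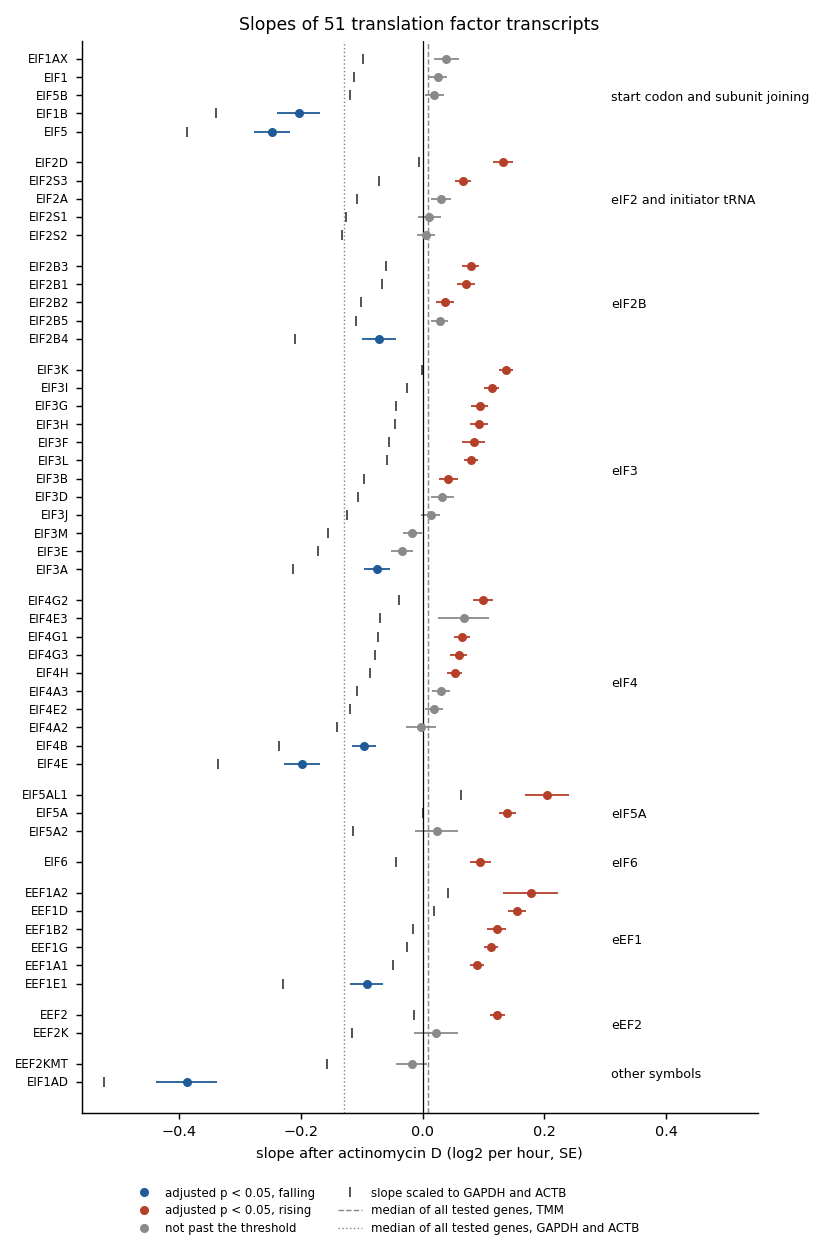
Slope in log2 per hour with its SE for the 51 tested members, grouped by role, coloured by whether the adjusted p of edgeR's test was below 0.05. Ticks give the same slopes scaled to GAPDH and ACTB, under which all but 4 slopes are negative, and the dashed and dotted lines give the median of all tested genes under each scaling.

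Among the factors that read the start codon and join the subunits, EIF5 and EIF1B fell and EIF1, EIF1AX and EIF5B did not pass the test. EIF5 (chr14:103333544-103345025, GENCODE GRCh38), which triggers GTP hydrolysis by eIF2 at the start codon, had 654, 792 and 639 CPM at 0 h in replicates 1, 2 and 3. It had 636, 732 and 592 CPM at 1 h, 486, 546 and 414 at 2 h, and 381, 394 and 317 at 4 h. Replicate 2 was the highest at each time, and all values at 4 h lay under all values at 0 h. The mean at 4 h was 52.4% of that at 0 h, and the slope was −0.25 ± 0.03 (SE, edgeR adjusted p = 1.75e-06). EIF5 is known to be under feedback control of its own start codon choice, a property that it shares with EIF1.

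EIF1B, a close copy of the start codon gatekeeper eIF1 (chr3:40309707-40312424), had 21.8, 21.5 and 25.1 CPM at 0 h, 17.4, 17.2 and 17.9 at 1 h, 12.5, 14.0 and 17.5 at 2 h, and 11.6, 11.8 and 15.1 at 4 h. The groups at 0 h and 4 h did not overlap, and its slope was −0.20 ± 0.04 (edgeR adjusted p = 0.00011). EIF1 itself had 222, 233 and 238 CPM at 0 h, 221, 214 and 216 at 1 h, 230.4, 211 and 221 at 2 h, and 244, 239 and 247 at 4 h. Its libraries at 1 h all lay below those at 0 h and its libraries at 4 h all lay above, and the slope of 0.02 ± 0.01 did not pass the test (edgeR adjusted p = 0.151). EIF1AX, the scanning factor eIF1A, and EIF5B, the GTPase of subunit joining, had slopes of 0.04 ± 0.02 and 0.02 ± 0.02.

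Of the eIF2 subunits EIF2S3 rose under TMM, and EIF2S1 and EIF2S2 did not pass the test. EIF2S1, the subunit that the stress kinases phosphorylate, and EIF2S2 had slopes of 0.01 ± 0.02 and 0.01 ± 0.01. EIF2S3, which binds the initiator tRNA and GTP, had a slope of 0.07 ± 0.01 (edgeR adjusted p = 0.000365), and of −0.07 when scaled to GAPDH and ACTB. EIF2D, which can place tRNA without GTP after recycling, rose faster, from 50.2 ± 3.18 CPM at 0 h to 72.3 ± 3.04 CPM at 4 h (SD, n = 3), with a slope of 0.13 ± 0.02 (edgeR adjusted p = 3.15e-06). EIF2A, an alternative carrier of initiator tRNA, had a slope of 0.03 ± 0.02 and did not pass.

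Of the 5 subunits of eIF2B, the exchange factor of eIF2, 3 rose under TMM, with negative slopes when scaled to GAPDH and ACTB, and 1 fell under both. Over all tested genes 30.7% rose and 32.1% fell under TMM. EIF2B3 rose from 54.3 ± 0.317 to 66.8 ± 1.75 CPM (slope 0.08 ± 0.01, edgeR adjusted p = 0.000108) and EIF2B1 from 58.8 ± 1.56 to 72.1 ± 2.34 CPM (slope 0.07 ± 0.01, edgeR adjusted p = 0.000509). The slope of EIF2B2, 0.04 ± 0.02 (edgeR adjusted p = 0.0479), lost its call when any 1 of 11 of the 12 libraries, all but replicate 3 at 4 h, was left out, with values from 0.02 to 0.04. EIF2B4 fell with a slope of −0.07 ± 0.03 (edgeR adjusted p = 0.035), and its libraries at 0 h and 4 h overlapped. That call was lost without replicate 2 at 0 h, replicate 1 at 4 h or replicate 3 at 4 h, and the slope was −0.03 without the last of these and 0.01 over 0 to 2 h.

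The eIF3 complex coordinates the small subunit, the mRNA and the other factors, and 12 of its subunit genes were tested. Of these 7 rose under TMM, against 30.7% of all tested genes, 1 fell, against 32.1%, and 4 did not pass. The median slope of the 12 was 0.06 and became −0.08 when scaled to GAPDH and ACTB. EIF3K, a small peripheral subunit (chr19:38619082-38636955), rose the fastest of them. It had 139.7, 142 and 144 CPM at 0 h, 158, 149.9 and 158 at 1 h, 169, 166 and 177 at 2 h, and 211, 201 and 209 at 4 h. The 4 times did not overlap at all. Its slope was 0.14 ± 0.01 (edgeR adjusted p = 5.73e-08), and the level at 4 h was 146% of that at 0 h.

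EIF3I, part of the scaffold near the mRNA entry side, rose with a slope of 0.11 ± 0.01, EIF3G with 0.09 ± 0.01, EIF3H with 0.09 ± 0.01, EIF3F with 0.08 ± 0.02 and EIF3L with 0.08 ± 0.01. EIF3B, which joins the scaffold to the rest of the complex, had a slope of 0.04 ± 0.02 (edgeR adjusted p = 0.0329), and its call was lost without replicate 3 at 0 h (slope 0.03) or without replicate 1 or 2 at 4 h (up to 0.04). EIF3A, the largest subunit, fell with a slope of −0.07 ± 0.02 (edgeR adjusted p = 0.0059), from 598.5 ± 23.7 CPM at 0 h to 493 ± 54.1 CPM at 4 h. Its level was 612.6 ± 43.4 CPM at 1 h and 601 ± 34.1 CPM at 2 h, so the fall lay between 2 h and 4 h, and over 0 to 2 h alone the slope was 0.01. EIF3D, EIF3E, EIF3J and EIF3M did not pass the test, with slopes from −0.03 (EIF3E) to 0.03 (EIF3D).

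Of the 10 tested eIF4 factors 2 fell, against 32.1% of all tested genes, and 4 rose, against 30.7%. EIF4E, the cap-binding protein (chr4:98879276-98929133), had 44.4, 54.3 and 49.4 CPM at 0 h, 40.6, 48.6 and 43 at 1 h, and 36.4, 48.3 and 44.1 at 2 h. At 4 h it had 27.0, 29.0 and 28.0 CPM, which lay under every earlier value. The slope was −0.20 ± 0.03 (edgeR adjusted p = 2.3e-05), and the mean at 4 h was 56.8% of that at 0 h. EIF4B, the partner that stimulates the helicase and whose annotated start holds a tract of the minimum length of 5 bases (chr12:53006282-53042215), had 382, 409 and 395 CPM at 0 h and 382, 411 and 372 CPM at 2 h. It then had 316, 328 and 271 CPM at 4 h, below all earlier values, and 389, 411 and 389.9 CPM at 1 h. Its slope was −0.10 ± 0.02 (edgeR adjusted p = 0.000477), and −0.002 over 0 to 2 h alone.

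The scaffold genes all rose under TMM, with negative slopes when scaled to GAPDH and ACTB: EIF4G2 with a slope of 0.10 ± 0.02, EIF4G1 with 0.06 ± 0.01 and EIF4G3 with 0.06 ± 0.01, and so did EIF4H, a second helper of the helicase, with 0.05 ± 0.01. EIF4A2, the helicase paralog that was counted, had a slope of −0.0026 ± 0.02. Its mean was 315 ± 29.8 CPM at 0 h, 278 ± 19.2 at 1 h, 263 ± 20.1 at 2 h and 307 ± 20.6 at 4 h (SD, n = 3). That bend did not pass the test of a departure from a line (edgeR adjusted p = 0.166), and it passed with the replicate number as a block (edgeR adjusted p = 5.06e-07). EIF4A3, the helicase of the exon junction complex, EIF4E2 and EIF4E3 did not pass the slope test.

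EIF5A and EIF6, which act outside the assembly of the start complex, rose under TMM, and had slopes of 0.00085 and −0.04 when scaled to GAPDH and ACTB. EIF5A (chr17:7306999-7312463), which like its paralog EIF5A2 carries the amino acid hypusine, had 783, 771 and 741 CPM at 0 h, 825, 816 and 755 at 1 h, 926, 955 and 892 at 2 h, and 1157, 1117 and 1044 at 4 h. The libraries at 2 h lay above all of those at 0 h and 1 h, and those at 4 h above all others. Its slope was 0.14 ± 0.01 (edgeR adjusted p = 2.39e-07). EIF6, which keeps free large subunits from joining too soon, rose with a slope of 0.09 ± 0.02 (edgeR adjusted p = 0.000195).

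EIF5AL1, an EIF5A-like gene at chr10:79512533-79516440, had the highest slope of all members, 0.20 ± 0.04 (edgeR adjusted p = 0.000104). It had 6.98, 6.95 and 7.11 CPM at 0 h, 9.2, 7.07 and 7.99 at 1 h, 9.44, 8.51 and 8.13 at 2 h, and 15.1, 12 and 10.3 at 4 h. Groups at 0 h and 4 h did not overlap, and replicate 1 was the highest at 4 h. Its coding sequence is close to that of EIF5A, which had 7965 to 11538 counts per library against 71 to 127 for EIF5AL1, and reads of the pair may not be separable. EIF5A2, the paralog known from tumours and testis, had 16.2, 15.2 and 16.2 CPM at 0 h, 13.0, 11.3 and 12.9 at 1 h, 16.1, 16.1 and 17.8 at 2 h, and 15.3, 15.4 and 16.1 at 4 h. All its libraries at 1 h lay below those of every other time, and its slope over the course was 0.02 ± 0.04.

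Of the 9 tested members with an EEF symbol 6 rose under TMM, 1 fell and 2 did not pass, against 30.7% rising and 32.1% falling over all tested genes. The 6 that rose were EEF1A1, EEF1A2, EEF1B2, EEF1D, EEF1G and EEF2, the subunits of eEF1A, eEF1B and eEF2. Their slopes ran from 0.09 to 0.18 with a median of 0.12. When scaled to GAPDH and ACTB that median was −0.02, and among these 6 the slopes of EEF1A2 and EEF1D alone stayed positive. EEF1D, an exchange subunit on chromosome 8, had 438, 392 and 388 CPM at 0 h, 462, 475 and 456 at 1 h, 564, 534 and 499 at 2 h, and 618, 645 and 614 at 4 h. Its 4 times did not overlap, and the slope was 0.16 ± 0.01 (edgeR adjusted p = 1.84e-07). EEF1A2 (chr20:63488013-63499239) had 4.13, 4.53 and 5.33 CPM at 0 h, 4.69, 6.48 and 6.17 at 1 h, 5.37, 6.99 and 5.42 at 2 h, and 6.16, 8.23 and 9.3 at 4 h. Neighbouring times overlapped, the groups at 0 h and 4 h did not, and the slope was 0.18 ± 0.05 (edgeR adjusted p = 0.0026).

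EEF2 went from 2742 ± 119 to 3839 ± 42.7 CPM (SD, n = 3), a slope of 0.12 ± 0.01 (edgeR adjusted p = 3.14e-07). EEF1B2 had a slope of 0.12 ± 0.02, EEF1G of 0.11 ± 0.01 and EEF1A1 of 0.09 ± 0.01, the last going from 5616 ± 138 to 7086 ± 283 CPM. EEF1E1, which carries an elongation factor symbol but is known as a scaffold of the aminoacyl-tRNA synthetase complex, fell with a slope of −0.09 ± 0.03 (edgeR adjusted p = 0.0078), from 29.5 ± 2.80 to 22.0 ± 1.83 CPM. The kinase EEF2K and the methyltransferase EEF2KMT, which modify eEF2, had slopes of 0.02 ± 0.04 and −0.02 ± 0.03 and did not pass the test.

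EIF1AD, named for its eIF1A-like domain and taken in by its symbol (chr11:65996545-66002176), fell the fastest of all members. It had 60.3, 57.3 and 54.4 CPM at 0 h, 52.8, 50.2 and 39.5 at 1 h, 26.5, 24.7 and 20.8 at 2 h, and 25.5, 18.4 and 20.3 at 4 h. Every library at 2 h lay below every library at 1 h, while 2 h and 4 h overlapped. Its slope was −0.39 ± 0.05 (edgeR adjusted p = 4.81e-06), which ranked 948 from the lowest among the 12032 tested genes. It was also the only member past the threshold of the test of a departure from a line (edgeR adjusted p = 0.0367, against 2.7% of all tested genes). That call was lost when any single library at 0 h or 2 h, or replicate 1 or 2 at 1 h, was left out. With the replicate block 12 members passed that test, against 17.2% of all tested genes.

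**Figure D3:**
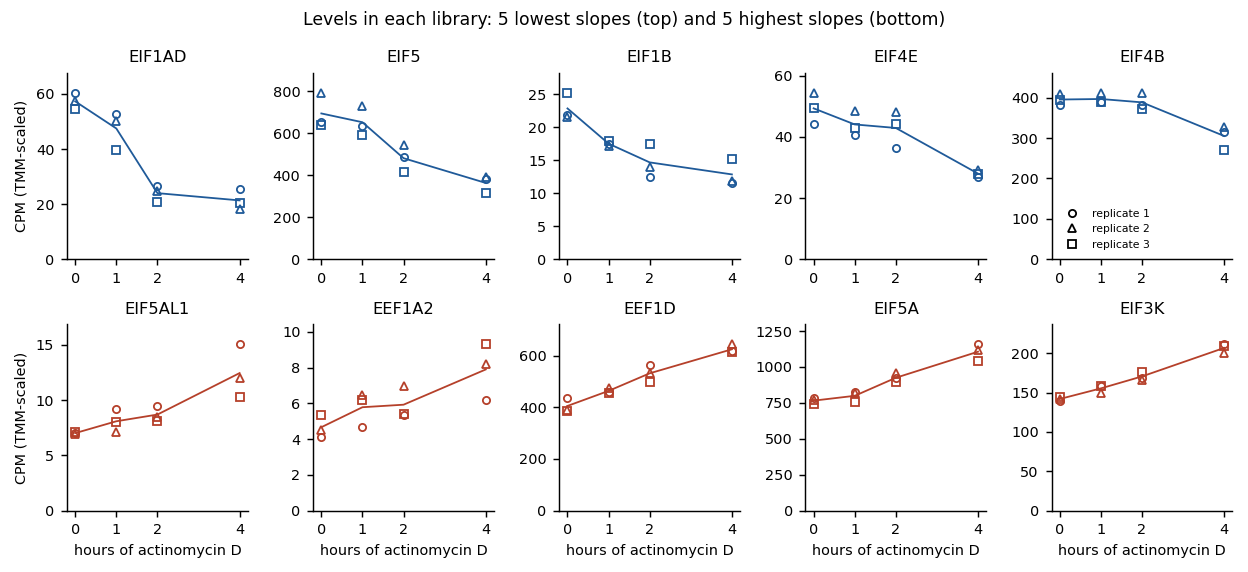
TMM-scaled CPM in each of the 12 libraries against hours of actinomycin D for the 5 members with the lowest slopes (upper row) and the 5 with the highest (lower row) among those moving the same way in all 3 replicates, with symbols for replicates and a line through the means. Each axis starts at 0; EIF1AD drops between 1 h and 2 h and then levels off, EIF4E and EIF4B drop between 2 h and 4 h, and EEF1D, EIF5A and EIF3K climb throughout, a climb that holds under TMM and is near level when scaled to GAPDH and ACTB.

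Consecutive times were then compared, and without a block the calls fell after the first hour. Between 0 h and 1 h, 0 members were lower and 0 higher by edgeR's test, calls that 2.24% and 0.349% of all tested genes had, with 5 lower and 3 higher at an unadjusted p under 0.05, and by DESeq2's test likewise 0, with 3 lower and 3 higher unadjusted. With the replicate block 5 members were lower (EIF1B, EIF5A2, EIF1AD, EEF1E1 and EIF4A2), against 10.5% of all tested genes, and 4 higher (EEF2, EIF3K, EIF3G and EEF1D), against 6.18%. Between 1 h and 2 h, EIF1AD and EIF5 were lower by 0.98 ± 0.13 and 0.44 ± 0.12 on the log2 scale, a call that 12.5% of all tested genes had. In the same hour 7 members were higher, against 3.76% of all tested genes: EEF1A1, EEF1B2, EEF1D, EEF1G, EIF3I, EIF5A and EIF5A2. The change of EIF5A2 was 0.43 ± 0.10 (edgeR adjusted p = 0.0091) after a difference of −0.36 ± 0.10 from 0 h to 1 h that did not pass the test (edgeR adjusted p = 0.0772).

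Between 2 h and 4 h, EIF4E, EIF5, EIF4B and EIF3A were lower, a call that 18.3% of all tested genes had. This last interval spans 2 h and each earlier one 1 h, so its changes and counts cover more time. EIF4E changed the most, by −0.61 ± 0.11 on the log2 scale (edgeR adjusted p = 0.00106). In this interval 12 members were higher, against 12% of all tested genes: the elongation factors EEF1A1, EEF1B2, EEF1D, EEF1G and EEF2, and EIF2D, EIF3F, EIF3G, EIF3I, EIF3K, EIF5A and EIF5AL1. With the replicate block 3 members were lower and 19 higher from 1 h to 2 h, against 20.7% and 17% of all tested genes. From 2 h to 4 h 8 were lower and 25 higher in that fit, against 25.3% of all tested genes in each direction. Scaled to GAPDH and ACTB, 0 members were higher in these later intervals by edgeR's test (1 and 0 at an unadjusted p under 0.05), and with library totals 2 and 5 were. Several interval counts rest on single libraries. The 7 higher members from 1 h to 2 h became 3 without any 1 of the libraries at 1 h or replicate 3 at 2 h, and 1 without replicate 2 at 2 h, and the 2 lower members became 1 without replicate 2 at 1 h or replicate 3 at 2 h. From 2 h to 4 h the 4 lower members became 2 without replicate 2 at 2 h or replicate 3 at 4 h, and the 12 higher became 6 without replicate 3 at 2 h.

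Paralogs were compared within each library, which makes the result independent of the scaling between libraries. Of 9 pairs planned 7 could be tested, since EIF4A1 was listed at 0. The slope of the log2 ratio was tested with an exact permutation test over all 369600 arrangements of the 12 libraries to the times, two-sided, with Benjamini-Hochberg adjustment over the 7 pairs. A moving ratio shows unequal change and does not say which gene moved.

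The ratio of EIF1 to EIF1B rose by 0.23 ± 0.03 log2 per hour (SE, adjusted p = 0.000549, exact permutation test). Its log2 values were 3.34, 3.44 and 3.24 at 0 h and 4.39, 4.33 and 4.03 at 4 h, so all 3 replicates moved up and the groups did not overlap. EIF4E lost ground to both of its relatives. The ratio of EIF4E to EIF4E2, a cap-binding protein that represses rather than starts translation, fell by 0.22 ± 0.03 log2 per hour (adjusted p = 0.000549, exact permutation test). Its log2 values were −0.97, −0.68 and −0.83 at 0 h and −1.77, −1.61 and −1.66 at 4 h. EIF4E2 itself had 86.7, 87.3 and 87.9 CPM at 0 h, 82.2, 83.0 and 84.5 at 1 h, 92.3, 90.7 and 90.8 at 2 h, and 92.4, 89.0 and 88.4 at 4 h, a narrow band with 1 h lowest.

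The ratio of EIF4E to EIF4E3 fell by 0.27 ± 0.05 log2 per hour (adjusted p = 0.000795, exact permutation test). EIF4E3 had 4.92, 5.79 and 7.19 CPM at 0 h, 7.66, 5.6 and 7.17 at 1 h, 6.86, 6.48 and 7.94 at 2 h, and 6.75, 7.36 and 7.96 at 4 h, with all times overlapping. The ratio of EIF5A to EIF5A2 rose by 0.11 ± 0.04 log2 per hour (adjusted p = 0.0187, exact permutation test), from 5.59, 5.66 and 5.51 at 0 h to 6.24, 6.18 and 6.01 at 4 h. Without replicate 1 that ratio no longer passed (slope 0.0995, adjusted p = 0.142, exact permutation test). Over 0 to 2 h alone the EIF5A ratio (0.10) and both EIF4E ratios (−0.13 and −0.23) no longer passed, with adjusted p from 0.211 to 0.452 in the exact permutation test, whereas the EIF1 ratio did (0.29, adjusted p = 0.0167).

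The other 3 pairs did not pass. EIF4G1 to EIF4G3 had a slope of 0.0054 ± 0.02 log2 per hour (adjusted p = 0.768, exact permutation test). EIF4G1 to EIF4G2 had −0.03 ± 0.02 (adjusted p = 0.138), and with arrangements held within replicate numbers as a block it passed (adjusted p = 0.0169, exact permutation test). EEF1A1 to EEF1A2 had −0.09 ± 0.05 (adjusted p = 0.138, exact permutation test), with log2 ratios of 10.36, 10.30 and 10.03 at 0 h and 10.18, 9.78 and 9.50 at 4 h.

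**Figure D4:**
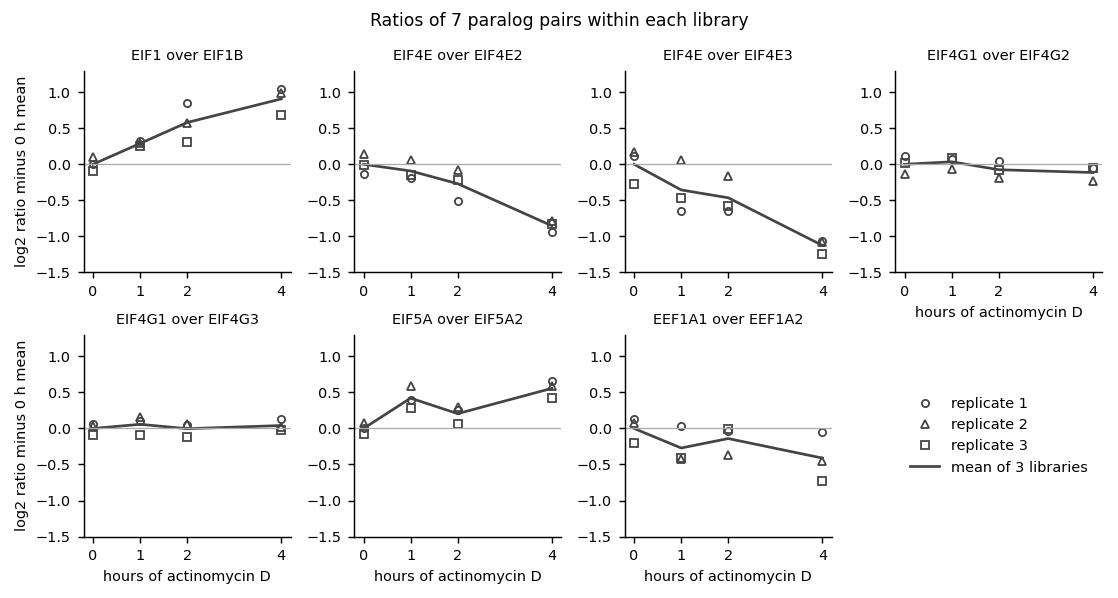
Log2 ratio of counts within each library, less the mean ratio at 0 h, against hours of actinomycin D for the 7 tested pairs, with a symbol per replicate and a line through the means. EIF1 over EIF1B climbs, and EIF4E over EIF4E2 falls mostly between 2 h and 4 h. EIF4E over EIF4E3 has its larger steps down from 0 h to 1 h and from 2 h to 4 h. EIF5A over EIF5A2 climbs with a dip at 2 h, and the EIF4G1 ratios stay near 0.

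The letters at the transcript start and the slopes were set side by side. Of the 12 members with a tract 7 rose, 1 fell (EIF4B) and 4 did not pass, with a median slope of 0.07 log2 per hour. Of the 30 members with a window and no tract, 13 rose, 6 fell and 11 did not pass, with a median of 0.03. Over all tested genes 276 of 700 with a tract rose and 208 fell (median 0.03), and 2569 of 8455 without a tract rose and 2828 fell (median 0.0066). Of the 9 factors known from textbooks as TOP mRNAs (EEF1A1, EEF1B2, EEF1D, EEF1G, EEF2, EIF3E, EIF3F, EIF3H and EIF4B) 7 rose, EIF4B fell and EIF3E did not pass, with a median slope of 0.09, against 0.03 for the other 42 members. Over all tested genes 30.7% rose and 32.1% fell. Among these 9, EEF1G had a window with no tract and EEF1D, EIF3E and EIF3H had no window, so the textbook list and the tracts differ. Scaled to GAPDH and ACTB the medians of the 9 and of the other 42 were −0.05 and −0.11, and those of the members with and without a tract were −0.06 and −0.10.

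Other properties of the annotated canonical transcripts, which played no part in the choice of members, were set beside the slope. Transcript length had a median of 2672 bases in the 8 falling members, 2563 in the 25 rising and 2559 in the 18 that did not pass. The 3′ UTR, where many signals for decay lie, had medians of 1872, 556 and 1748 bases in the same order. The pentamer ATTTA, the core of AU-rich elements, was counted on the transcript strand of the 3′ UTR with overlaps allowed, and its median number was 4, 1 and 6 in the same order. The median GC content was 42.9%, 51.3% and 39.6%. Across the 51 members, which are not independent replicates, Spearman's rho of slope with transcript length was −0.18 (Pearson −0.08), with 3′ UTR length −0.33 (Pearson −0.13), with ATTTA −0.36 (Pearson −0.12) and with GC content 0.49 (Pearson 0.38). Across 10827 tested coding genes the same rho values were −0.25, −0.27, −0.31 and 0.27. All points share the same 12 libraries.

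**Figure D5:**
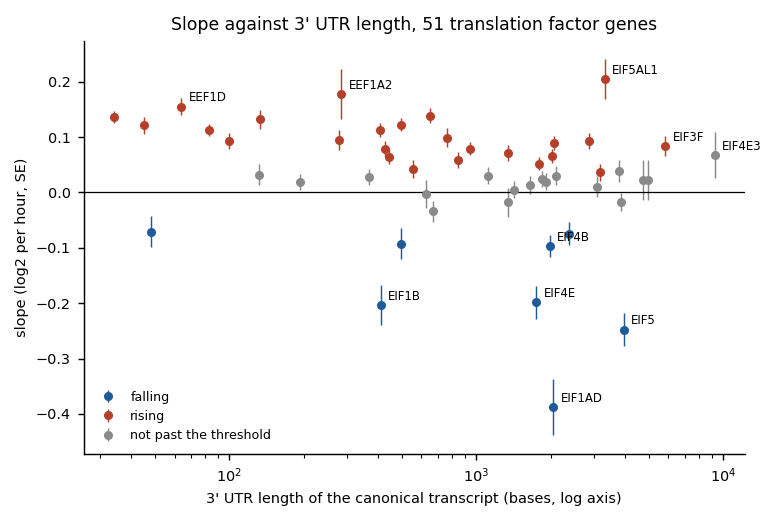
Slope in log2 per hour with its SE against the 3′ UTR length of the canonical transcript on a log axis for the 51 tested members, coloured by direction under TMM, which turns for nearly all rising members when scaled to GAPDH and ACTB. Members with 3′ UTRs shorter than that of EIF3L (943 bases), a length chosen from these same points, mostly rise. Of these shorter ones EIF2B4, EIF1B and EEF1E1 fall, and EIF2B5, EIF3D, EIF3E, EIF4A2 and EIF4E2 do not pass the test. No share of all genes with short 3′ UTRs is given. The fastest falling member, EIF1AD, has 2054 bases.

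Genes outside the rule that control these factors or act beside them were described from a list. Of 36 such genes 35 were tested, of which 10 fell and 11 rose, against 32.1% and 30.7% of all tested genes, and their median slope was 0.01 log2 per hour, as over all tested genes. The 3 lowest slopes were those of PELO, which rescues stalled ribosomes (−0.85 ± 0.05, edgeR adjusted p = 2.76e-09), GSPT2, a release factor of the eRF3 type (−0.67 ± 0.05), and EIF2AK3, the eIF2 kinase PERK of the endoplasmic reticulum (−0.50 ± 0.05). PELO went from 51 ± 3.17 CPM at 0 h to 5.08 ± 0.999 CPM at 4 h (SD, n = 3). All 3 slopes lay below that of EIF1AD. The 3 highest were those of RPS6KB2, an S6 kinase (0.17 ± 0.02), DHPS, the first enzyme of hypusine synthesis on eIF5A (0.16 ± 0.03), and EIF4EBP1, the repressor that binds eIF4E (0.16 ± 0.01). These 3 rose by edgeR's test under TMM, with slopes of 0.03, 0.02 and 0.02 that did not pass when scaled to GAPDH and ACTB. PABPC1 and PABPC4, chosen after their values were seen, bind the poly(A) tail and eIF4G. They rose with slopes of 0.11 ± 0.01 and 0.12 ± 0.01 under TMM, and had −0.03 and −0.02 when scaled to GAPDH and ACTB.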

How the data were processed

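Values are the counts that the authors deposited, whole numbers per gene symbol with no normalization, from stranded poly(A) libraries. The submitters' processing notes name FastQC, STAR and hg19. The counting tool and its treatment of strand and of shared reads are not given in the sources used here. Groups and replicate numbers came from the labels. The members, lists and tests were chosen with earlier results of these data known.

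Counts were analysed in edgeR 4.0.16 (R 4.3.3) with a mean of at least 10 counts, TMM factors, glmQLFit and glmQLFTest with time as a number, as 4 groups, or with squared and cubed terms, and Benjamini-Hochberg adjustment over 12032 genes at 0.05. The fits were checked on simulated counts. Paralog ratios used log2 of counts plus 0.5. Values in every library are given for the 5 lowest and 5 highest slopes past the threshold that moved alike in 3 replicates, for a bend past the threshold and for paralog pairs past it, and of the other genes the 3 lowest and 3 highest slopes are named. EIF1AY levels were left out. Gene positions and transcript features came from GENCODE version 44 (GRCh38) by symbol, for all 51 tested members.

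Libraries of 1 time differed by more than sampling noise in all 12 pairs. Same-numbered libraries deviated together from their time means (correlation 0.347 to 0.657 in 18 pairs, against −0.439 to 0.0953 in 36 pairs of unlike number), which pairs them. The main tests leave this pairing out, so the spread behind their p-values also holds the differences between replicate numbers. Members that did not pass there could pass with the replicate block. All p-values concern cultures of a single line. Alternatives were library totals, DESeq2 1.42.0 size factors and test, GAPDH and ACTB, other filters, a replicate block, left-out libraries, replicates and times, limma 3.58.1 on log2(CPM + 1), and members without shared reads.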

Additional observations from a re-analysis of the deposited data

How the results depend on the processing

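Unless given here, the counts of called members stayed within 1.5 times the reported ones and the ratios kept their call. Beyond the main fit and the replicate block, the share of all tested genes called is not given, so these counts stand without a background. Scaled to GAPDH and ACTB, 37 members fell and 0 rose, the median slope was −0.098, 1 member was lower at 1 h, 0 were higher from 1 h to 2 h, and 22 were lower and 0 higher from 2 h to 4 h. With library totals the median slope was −0.00031, 2 members were higher from 1 h to 2 h, and 8 were lower and 5 higher from 2 h to 4 h. With the replicate block, that is with samples paired by number, 5 members were lower and 4 higher at 1 h, 19 higher from 1 h to 2 h, 8 lower and 25 higher from 2 h to 4 h, 12 departed from a line, and the EIF4G1 to EIF4G2 ratio passed at the same slope of −0.035, while no slope call was lost and 6 were gained. Without a count filter 4 members were higher from 1 h to 2 h. With a mean of at least 100 counts the median slope was 0.028. Over 0 to 2 h only 4 members fell, the median slope was 0.057, and the slopes of EIF4E over EIF4E2 (−0.13), EIF4E over EIF4E3 (−0.23) and EIF5A over EIF5A2 (0.103) no longer passed, while EIF2B4 (0.014) and EIF3A (0.013) turned positive. Over 1 to 4 h only the median slope was 0.052. Leaving out 1 replicate gave 1 to 2 members lower and 0 to 1 higher from 1 h to 2 h, 2 to 4 lower and 5 to 8 higher from 2 h to 4 h, 0 departing from a line, and 0.099 to 0.12 for EIF5A over EIF5A2. Leaving out 1 library gave 1 to 2 lower and 1 to 7 higher from 1 h to 2 h, 2 to 5 lower and 6 to 14 higher from 2 h to 4 h, 0 to 1 departing from a line, and a median slope of 0.028 to 0.051.

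The cause of these changes was not tested beyond the samples and genes each setting removes. Scaled to GAPDH and ACTB, slopes turned negative for EEF1A1 (−0.049), EEF1B2 (−0.016), EEF1G (−0.025), EEF2 (−0.015), EEF2K (−0.12), EIF1 (−0.11), EIF1AX (−0.098), EIF2A (−0.11), EIF2B1 (−0.066), EIF2B2 (−0.102), EIF2B3 (−0.0597), EIF2B5 (−0.11), EIF2D (−0.0067), EIF2S1 (−0.13), EIF2S2 (−0.13), EIF2S3 (−0.072), EIF3B (−0.096), EIF3D (−0.11), EIF3F (−0.055), EIF3G (−0.044), EIF3H (−0.046), EIF3I (−0.025), EIF3J (−0.12), EIF3K (−0.0019), EIF3L (−0.059), EIF4A3 (−0.11), EIF4E2 (−0.12), EIF4G1 (−0.073), EIF4G2 (−0.038), EIF4G3 (−0.079), EIF4H (−0.086), EIF5A2 (−0.11), EIF5B (−0.12) and EIF6 (−0.044). The slope of EIF4E3 also turned negative when scaled to GAPDH and ACTB (−0.071), without passing edgeR's test under either scaling. With library totals EIF2B2 had −0.0028. EIF4E3 and EEF1A2, with means of 68.8 and 60.9 counts, had slope errors of 0.04 and 0.05, against 0.01 for EEF1A1, and EIF1AD, with a mean of 386 counts, had 0.05, so the errors did not follow depth alone.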
